A study of Homo sapiens with 30 samples.

Results

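The 35 genes described here encode the enzymes and carriers that take glucose to pyruvate and lactate, the pyruvate dehydrogenase complex that passes pyruvate to the mitochondrial acid cycle, and the enzymes that run the route back to glucose. They were chosen by gene symbol, with G6PC1 listed under its older symbol G6PC, and all 35 were found among the 60675 gene rows of the deposited table. The choice was made with earlier results of these data known. After a filter on low counts 34 of them stayed among the 16083 genes tested, and LDHB was left out. The values come from RNA sequencing of HepG2, an established human liver cancer cell line, in 30 libraries of 13 groups after 24 h of treatment. The treated cells received a 70% ethanol extract of Palmul-tang, Sibjeondaebo-tang, Samul-tang or Sagunja-tang, herbal formulas of Korean medicine, at 20 µg/mL (low), 100 µg/mL (medium) or 500 µg/mL (high). Each dose of Palmul-tang and of Sibjeondaebo-tang had 3 libraries, each dose of Samul-tang had 2 and each dose of Sagunja-tang had 1. The untreated side was 3 vehicle libraries given 0.1% DMSO by their sample labels, and all groups share the 1 cell line and the same 24 h. The design text of the series differs on these points. It gives the vehicle as 2% DMSO, and it states that an extract whose toxicity limit fell under 500 µg/mL was used at that limit and at dilutions of it. Doses and vehicle are given here as in the sample labels, and the doses used may have been lower. By tradition Palmul-tang joins the herbs of Samul-tang with those of Sagunja-tang, and Sibjeondaebo-tang adds astragalus root and cinnamon bark to Palmul-tang. The labels do not say that libraries of a group came from separate cultures, so a p here speaks to the variation among these libraries only, and that variation may be technical. The cell line is a tumour model of hepatocytes, and RNA from a whole culture cannot tell apart fewer cells of one kind from less RNA per cell.

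Glycolysis splits glucose into pyruvate, and in cells with little oxygen or a high demand for carbon the pyruvate is reduced to lactate and exported. Hepatocytes also run the reverse path, in which pyruvate carboxylase and phosphoenolpyruvate carboxykinase bypass pyruvate kinase and a phosphatase in the endoplasmic reticulum releases free glucose to the blood. Many steps have a liver isozyme and an isozyme of growing or tumour cells, and hepatoma lines are known for carrying much of the tumour set. Genes of glycolysis are textbook targets of hypoxia-inducible factor, which reads the core letters ACGTG or GCGTG, and of MYC and USF, which read CACGTG.

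The promoters of 6 members are shown as examples of both directions, picked after their values were seen. LDHA, HK2 and PKM were higher, and SLC37A4, SLC2A2 and G6PC1 lower, in extract cells at the high dose in at least 2 of the 3 formulas tested. ALDOA and PCK2, called in 7 and 8 of the 9 comparisons with vehicle, are not among them. Each window runs from 250 bases before to 50 bases after a transcription start, taken from RefSeq on GRCh38.p14, and is printed 5′ to 3′ along the gene. Capitals mark the core ACGTG and the core GCGTG, read on either strand. CACGTG contains ACGTG on both strands, so each such palindrome counts as 2 matches. The LDHA window is at chr11:18394313-18394612, plus strand, the HK2 window at chr2:74834920-74835219, plus strand, and the PKM window at chr15:72231141-72231440, minus strand. The SLC37A4 window is at chr11:119030828-119031127, minus strand, the SLC2A2 window at chr3:171026671-171026970, minus strand and the G6PC1 window at chr17:42900549-42900848, plus strand.
LDHA: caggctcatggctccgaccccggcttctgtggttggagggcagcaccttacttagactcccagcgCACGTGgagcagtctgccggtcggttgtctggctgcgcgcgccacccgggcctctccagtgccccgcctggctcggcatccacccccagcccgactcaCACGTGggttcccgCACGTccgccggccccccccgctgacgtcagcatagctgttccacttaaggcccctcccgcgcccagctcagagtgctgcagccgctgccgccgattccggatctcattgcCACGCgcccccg
HK2: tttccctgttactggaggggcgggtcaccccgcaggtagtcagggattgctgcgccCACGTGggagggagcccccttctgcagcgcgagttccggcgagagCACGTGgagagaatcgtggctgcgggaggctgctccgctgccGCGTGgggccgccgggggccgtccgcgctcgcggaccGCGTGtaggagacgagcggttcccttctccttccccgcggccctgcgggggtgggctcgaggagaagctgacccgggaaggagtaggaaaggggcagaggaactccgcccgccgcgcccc
PKM: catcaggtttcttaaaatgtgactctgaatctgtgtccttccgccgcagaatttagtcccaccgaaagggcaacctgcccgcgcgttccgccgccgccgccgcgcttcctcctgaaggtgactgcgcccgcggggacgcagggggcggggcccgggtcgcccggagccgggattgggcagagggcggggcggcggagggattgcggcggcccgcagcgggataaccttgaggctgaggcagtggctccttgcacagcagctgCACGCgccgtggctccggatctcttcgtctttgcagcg
SLC37A4: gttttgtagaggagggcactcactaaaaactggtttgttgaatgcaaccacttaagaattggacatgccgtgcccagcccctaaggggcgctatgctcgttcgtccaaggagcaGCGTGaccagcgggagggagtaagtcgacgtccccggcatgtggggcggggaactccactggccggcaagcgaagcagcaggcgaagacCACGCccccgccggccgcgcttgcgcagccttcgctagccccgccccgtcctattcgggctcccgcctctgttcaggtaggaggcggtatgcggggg
SLC2A2: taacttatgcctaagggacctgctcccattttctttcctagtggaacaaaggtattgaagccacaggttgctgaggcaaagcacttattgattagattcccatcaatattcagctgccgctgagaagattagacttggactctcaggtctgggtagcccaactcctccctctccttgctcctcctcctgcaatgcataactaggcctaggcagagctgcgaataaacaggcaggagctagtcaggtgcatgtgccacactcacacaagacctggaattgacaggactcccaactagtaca
G6PC1: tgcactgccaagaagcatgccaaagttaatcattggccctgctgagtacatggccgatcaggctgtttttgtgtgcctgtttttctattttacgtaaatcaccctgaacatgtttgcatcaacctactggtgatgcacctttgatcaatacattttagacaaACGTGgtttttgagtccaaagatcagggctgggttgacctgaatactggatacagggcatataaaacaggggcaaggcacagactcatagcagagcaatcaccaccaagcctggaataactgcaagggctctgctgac

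The LDHA and HK2 windows each held 6 matches, 4 of them from 2 CACGTG palindromes counted on both strands. Their first bases lay at -185, -184, -87, -86, -73 and 39 from the start in LDHA and at -194, -193, -149, -148, -107 and -70 in HK2. Both genes have further windows that are not shown, with matches at -123 in LDHA and at -229, -55 and -48 in HK2. The HK2 window shown begins downstream of the gene start at 74833981. PKM had 1 match, at 13. SLC37A4 had 2, at -136 and -47, G6PC1 had 1, at -88, and SLC2A2 had 0 in this window. The windows also differed in base composition, with a GC share of 70.0% in LDHA, 71.7% in HK2, 68.0% in PKM, 63.7% in SLC37A4, 49.0% in SLC2A2 and 45.7% in G6PC1, beside a median of 58.7% over all windows of the table. The table held 64 windows of 32 members, and SLC2A3, SLC16A1 and PCK1 had none in it. ACGTG or GCGTG occurred in 38 of the 64 windows (59.4%), against 48.4% of the 35116 windows of all genes. CACGTG occurred in 10.9% of member windows, against 7.3% of all windows. GGGCGG, the Sp1 core, occurred in 60.9% of member windows, against 45.0% of all, and CCAAT in 32.8%, against 34.6%. These matches are letters in a window and were not tested as sites.

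Libraries held 21570416 to 37707232 expected counts (median 29865505). All 10 hepatocyte markers, albumin among them, had counts in every library, and their summed level was 54062 to 65182 CPM, the count scaled to the size of its library, in extract libraries and 57577 to 59621 CPM in vehicle libraries. Summed fibroblast markers stood at 3.97 to 30.0 CPM in extract libraries and 6.47 to 6.94 CPM in vehicle libraries. The 30.0 CPM were in Sibjeondaebo-tang low replicate 3, and no other extract library was above 7.6 CPM. The same library held 16 of the 18 LDHB counts of the series. Mitochondrial transcripts took 11.2% to 19.7% of the counts in extract libraries and 12.4% to 14.5% in vehicle libraries. Vehicle libraries carry sample codes with a prefix (E1) that differs from the prefix of Palmul-tang and Sibjeondaebo-tang libraries (15) and of Samul-tang and Sagunja-tang libraries (14). The titles of all libraries, vehicle and extract, carry the same label, BatchE. The sources used here do not say what the prefix stands for, so extract and code set cannot be told apart in any comparison with vehicle. Comparisons of doses, and of Sibjeondaebo-tang with Palmul-tang, lie within 1 code set.

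Compared per kilobase of exon, vehicle cells carried far more message of the lower part of glycolysis than of glucose production. GAPDH, which makes the first high-energy phosphate of the pathway, stood at 871 ± 34.4 CPM per kb (SD, n = 3, as for the others here). ALDOA, the aldolase of muscle and growing cells, followed at 321 ± 4.47 and ENO1, the common enolase, at 224 ± 4.99. The levels of ENO1 and of LDHA, the lactate dehydrogenase subunit of glycolytic tissues (213 ± 7.6), overlapped between libraries. Of the pyruvate kinases, PKM, the form of muscle and tumours, was at 67.2 ± 2.09 and PKLR, the form of liver and red cells, at 5.28 ± 0.199. SLC2A1, the common glucose carrier GLUT1, was at 50.8 ± 1.12, and SLC2A2, the liver carrier GLUT2, at 11.3 ± 0.37. Mitochondrial PCK2 was at 40.6 ± 1.92 and cytosolic PCK1, the hormone-controlled carboxykinase, at 1.18 ± 0.0555 CPM per kb. FBP1, the liver fructose bisphosphatase, PFKP and PFKM, the platelet and muscle phosphofructokinases, and HK1, the common hexokinase, lay at the bottom, and the levels of FBP1, PFKP and HK1 overlapped. LDHB, the lactate dehydrogenase subunit of heart, had no count in 27 libraries and 18 counts in the remaining 3, so lactate dehydrogenase message in these cells was almost wholly LDHA.

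**Figure D1:**
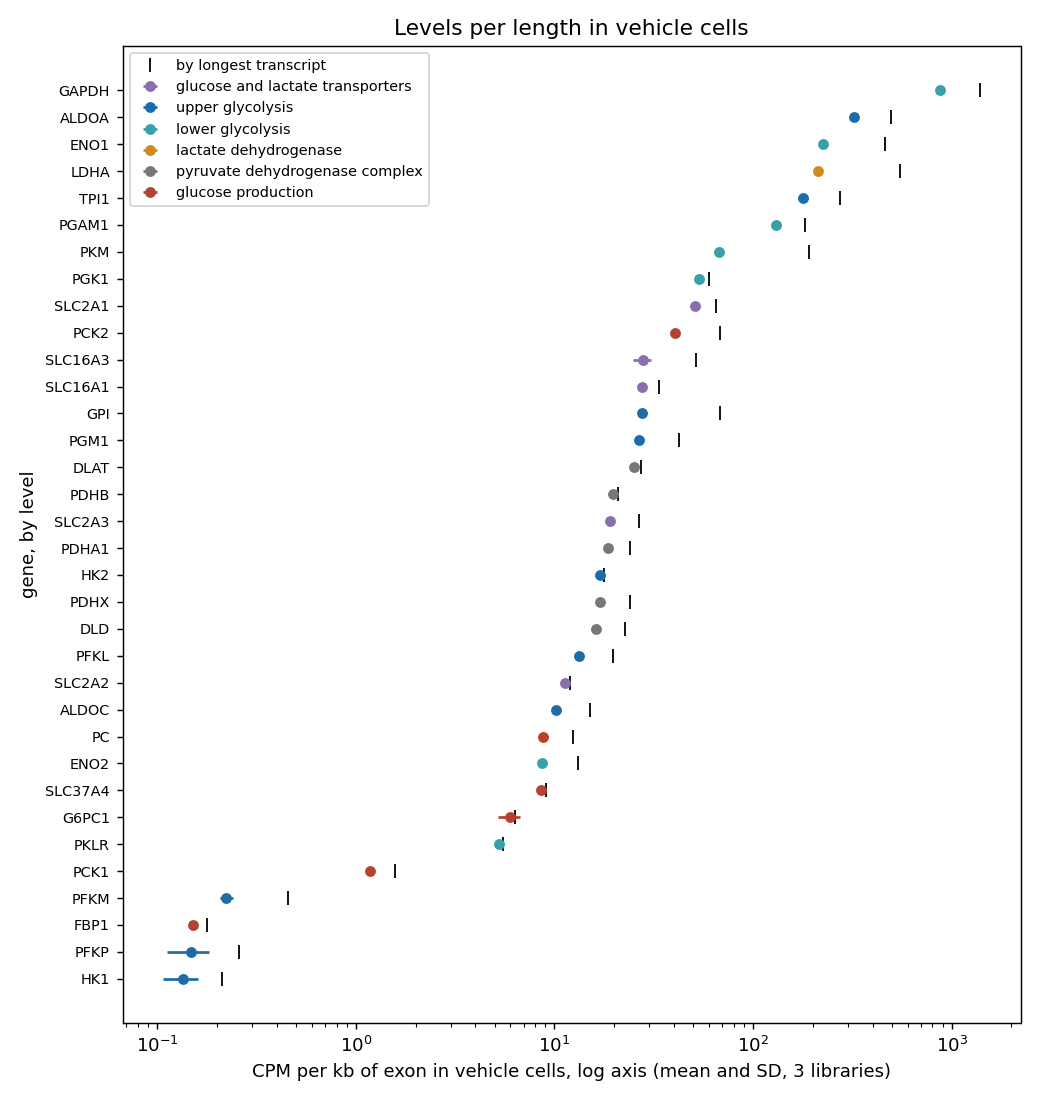
Vehicle level of 34 members in CPM per kb of exon on a log axis, as the mean with a bar of 1 SD over 3 libraries, ordered by level and coloured by role, with a black tick for the level per kb of the longest transcript. GAPDH stands highest, the gap lies between PCK1 at 1.18 and PFKM at 0.223 CPM per kb, and LDHA moves to second place when the longest transcript is used.

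At the high dose of every formula tested against vehicle, most calls among the members were rises in glucose uptake, glycolysis, lactate dehydrogenase and the pyruvate dehydrogenase complex, and the falls lay mainly in glucose production and release. Palmul-tang high cells had 12 members higher and 5 lower of 34, 50% of members, beside 31.8% of all genes tested (16.3% higher and 15.6% lower). Sibjeondaebo-tang high cells had 15 higher and 4 lower, 55.9% of members beside 36% of all genes (19.3% higher and 16.7% lower). Samul-tang high cells had 12 higher and 4 lower, 47.1% beside 18.5% of all genes (9.82% higher and 8.69% lower). Called means a Benjamini-Hochberg adjusted p below 0.05 in edgeR's quasi-likelihood test over all 16083 genes. The shares of all genes were not matched for level. Many members have high counts, where a small fold is more easily called. The members' median log2 fold change was 0.08, 0.13 and 0.08 in these comparisons, beside -0.01, -0.01 and -0.00 over all genes tested, so the typical member moved little. The 3 comparisons share the 3 vehicle libraries and are not independent of each other. Because the members were chosen with earlier results of these data known, their shares beside those of all genes are descriptive. They are no test of the set. The Samul-tang count rests on 2 treated libraries. It was 8 without vehicle replicate 2, 6 without Samul-tang high replicate 2 and 9 without Samul-tang high replicate 3, while the calls of PKM, LDHA, ALDOA, SLC2A2 and SLC37A4 were past the threshold in every setting tried.

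At lower doses fewer members were called. At the medium dose the counts were 12 higher and 3 lower in Palmul-tang cells (44.1% of members, beside 22.3% of all genes, 11.6% higher and 10.8% lower), 11 higher and 4 lower in Sibjeondaebo-tang cells (44.1%, beside 30.2%, 15.3% higher and 14.8% lower) and 7 higher and 2 lower in Samul-tang cells (26.5%, beside 19.8%, 10.3% higher and 9.57% lower). At the low dose they were 9 higher and 3 lower in Palmul-tang cells (35.3%, beside 23.2%, 11.5% higher and 11.7% lower), 3 higher and 3 lower in Sibjeondaebo-tang cells (17.6%, beside 23%, 11.5% each way) and 1 higher and 2 lower in Samul-tang cells (8.82%, beside 11.3%, 6.47% higher and 4.79% lower). At the low dose of Sibjeondaebo-tang and Samul-tang the order of these shares turned with the processing. In Sibjeondaebo-tang low cells the members' share was 34.3% with no filter on low counts (beside 12% of all genes), 29.4% with a replicate block (beside 24.2%), 29.4% with a GC correction (beside 24.4%) and 51.5% in a fit of both groups alone (beside 32.1%). In Samul-tang low cells it was 11.4% (beside 6.52%), 14.7% (beside 11%), 20.6% (beside 13.1%) and 18.2% (beside 15.4%) under the same settings. The Samul-tang medium count was 0 in a fit of both groups alone (beside 1.73%). Leaving out Samul-tang medium replicate 2 took the medium count of Samul-tang to 1. Leaving out either vehicle replicate 2 or Samul-tang low replicate 3 took its low count to 1. The Samul-tang medium libraries differed most from each other of all replicate pairs, with a chi-square per degree of freedom of 30.9, beside 2.99 to 18.8 in the other pairs.

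No member was called in both directions over the 9 comparisons with vehicle, which share the same vehicle libraries, though the fitted log2 fold change of many members had both signs. SLC2A1 ranged from -0.08 to 0.31, PC from -0.16 to 0.35 and ENO1 from -0.15 to 0.22. Of the 34 members, 18 were called higher only, 6 lower only and 10 in none of them. SLC37A4 was lower in all 9, SLC2A2 and PCK2 in 8, while PKM and PDHA1 were higher in 8 and ALDOA, LDHA and PCK1 in 7. At the high dose 11 members were higher in all 3 formulas (SLC2A3, HK1, HK2, GPI, ALDOA, GAPDH, PKM, LDHA, PDHA1, PDHX and PC) and 3 were lower in all 3 (SLC2A2, PCK2 and SLC37A4). The share of all genes called alike over these comparisons was not counted, so these counts have no background beside them. The scaled levels (CPM) summed over all members were, as a percent, 1.213% to 1.247% in Palmul-tang high and 1.271% to 1.277% in Sibjeondaebo-tang high libraries. In Samul-tang high libraries they were 1.175% to 1.219%, against 1.02% to 1.045% in vehicle libraries. Every extract group lay above the vehicle range in this share except that the lowest Sibjeondaebo-tang low library, at 1.032%, fell inside it.

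**Figure D2:**
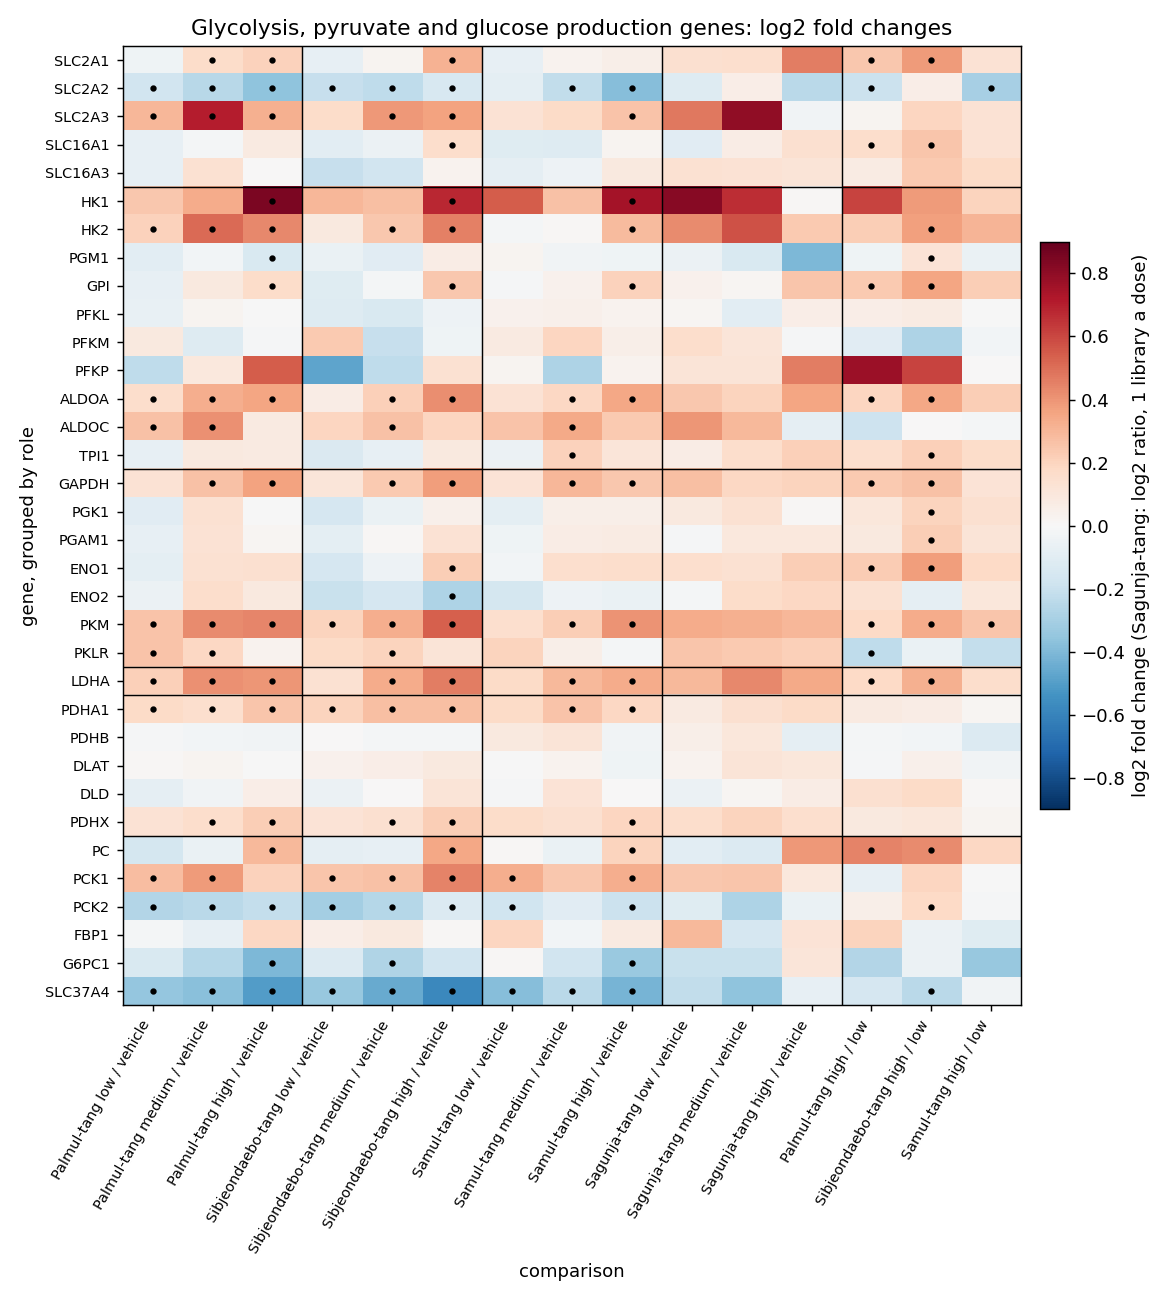
Log2 fold change of each of the 34 tested members (rows, by role) in the 9 comparisons with vehicle, the 3 Sagunja-tang libraries over vehicle and the 3 comparisons of high with low dose (columns), with a dot where edgeR's adjusted p was below 0.05 and no test for Sagunja-tang, which has 1 library per dose. PKM, LDHA and ALDOA are red in every column, SLC37A4 is blue in every column, and PDHB, DLAT and DLD have no dot.

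Among the 5 carriers, SLC2A3 rose and SLC2A2 fell at the high dose of all 3 formulas, and SLC2A1 rose in Palmul-tang and Sibjeondaebo-tang high cells. SLC2A3 encodes GLUT3, a high-affinity glucose carrier of neurons and many tumours (ENSG00000059804, chromosome 12, 7919230 to 7936275, minus strand, GRCh38). It stood at 158, 137 and 143 CPM in Palmul-tang high, 160.2, 156 and 135 CPM in Sibjeondaebo-tang high and 146 and 134 CPM in Samul-tang high libraries, against 117, 113 and 121 CPM in vehicle libraries. Every high-dose library lay above every vehicle library. The log2 fold changes were 0.32 ± 0.0753 (SE; adjusted p = 0.00193), 0.36 ± 0.0753 (adjusted p = 0.000522) and 0.26 ± 0.0832 (adjusted p = 0.0324). The Samul-tang call was lost without Samul-tang high replicate 2. The highest group mean of SLC2A3 among the groups with replicates was at the medium dose of Palmul-tang, with libraries at 199, 194 and 181 CPM, a log2 fold change over vehicle of 0.70 ± 0.0751 (adjusted p = 2.57e-07). From there it was lower at the high dose of Palmul-tang, with a log2 fold change of -0.38 ± 0.0746 for high against medium (adjusted p = 0.00316). Palmul-tang thus had its peak of SLC2A3 in the middle of the dose range.

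GLUT2, the low-affinity carrier through which hepatocytes take up and release glucose, moved the other way. Its gene SLC2A2 (ENSG00000163581, chromosome 3, 170996348 to 171026750, minus strand) stood at 31.4, 30.5 and 27.7 CPM in Palmul-tang high, 33.2, 35.2 and 36.2 CPM in Sibjeondaebo-tang high and 30.0 and 29.2 CPM in Samul-tang high libraries, against 39.4, 37.1 and 39.3 CPM in vehicle libraries. All 8 high-dose libraries lay below the 3 vehicle libraries. Against vehicle the log2 fold changes came to -0.36 ± 0.0571 (adjusted p = 1.2e-05), -0.14 ± 0.0565 (adjusted p = 0.0457) and -0.38 ± 0.0631 (adjusted p = 7.13e-05). The Sibjeondaebo-tang value is the smallest and its call was lost without vehicle replicate 1 or 3 or without Sibjeondaebo-tang high replicate 1 or 2 (adjusted p up to 0.119). In Palmul-tang and Samul-tang cells the mean of SLC2A2 was lower at each step from vehicle to high dose, which was not so in Sibjeondaebo-tang cells.

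SLC2A1, the carrier GLUT1 that supplies most tissues and many tumours with glucose (ENSG00000117394, chromosome 1, 42925375 to 42959176, minus strand), stood at 297, 266 and 266 CPM in Palmul-tang high and 296, 311 and 285 CPM in Sibjeondaebo-tang high libraries, against 246, 237 and 236 CPM in vehicle libraries. The groups did not overlap, and the log2 fold changes were 0.20 ± 0.0518 (adjusted p = 0.00285) and 0.31 ± 0.0518 (adjusted p = 2.3e-05). In Samul-tang high libraries it stood at 243 and 254 CPM, the groups overlapped and the log2 fold change was 0.05 ± 0.0577 (adjusted p = 0.577). Of the lactate and pyruvate carriers, SLC16A1 (MCT1) was called higher in Sibjeondaebo-tang high cells alone, at 164 ± 3.66 CPM against 147 ± 4.06 CPM in vehicle cells (SD, n = 3 each), with a log2 fold change of 0.16 ± 0.0495 (adjusted p = 0.0134), and that call was lost without vehicle replicate 1 or 2 or without Sibjeondaebo-tang high replicate 1. SLC16A3 (MCT4), the lactate exporter of glycolytic cells, was called in no comparison and ranged from 200.1 to 304 CPM over the libraries.

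In the upper part of glycolysis, HK1, HK2, GPI and ALDOA rose at the high dose of all 3 formulas, 4 of the 10 genes tested, and the phosphofructokinases were not called. PGM1 was the 1 gene that fell, in Palmul-tang high cells. HK2, the hexokinase of muscle and tumours that traps glucose as a phosphate ester (ENSG00000159399, chromosome 2, 74833981 to 74893359, plus strand), stood at 141, 129 and 144 CPM in Palmul-tang high, 150.2, 143 and 129.6 CPM in Sibjeondaebo-tang high and 125 and 125 CPM in Samul-tang high libraries, against 101, 105 and 102 CPM in vehicle libraries. No high-dose library reached down to the vehicle range, and the vehicle libraries lay close together. In edgeR's fit the log2 fold changes were 0.43 ± 0.0696 (adjusted p = 2.87e-05), 0.46 ± 0.0696 (adjusted p = 9.96e-06) and 0.29 ± 0.0769 (adjusted p = 0.00995), and the Samul-tang call was lost without either of its high libraries (adjusted p up to 0.0845). HK1 was also called higher, at 1.52 ± 0.169, 1.35 ± 0.298 and 1.41 ± 0.129 CPM against 0.846 ± 0.17 CPM in vehicle cells, with log2 fold changes of 0.85 ± 0.21, 0.68 ± 0.214 and 0.75 ± 0.226. These rest on 22 to 51 counts a library, and the Sibjeondaebo-tang call was lost without vehicle replicate 2 or Sibjeondaebo-tang high replicate 1 (adjusted p up to 0.12). The Samul-tang call of HK1 was lost without Samul-tang high replicate 2.

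GPI, which turns the glucose ester into the fructose ester (ENSG00000105220, chromosome 19, 34359480 to 34402413, plus strand), stood at 352, 319.7 and 323 CPM in Palmul-tang high, 347, 366 and 338 CPM in Sibjeondaebo-tang high and 340.4 and 343 CPM in Samul-tang high libraries, against 294, 297 and 296 CPM in vehicle libraries. The vehicle values were close together and lay below every high-dose value. The log2 fold changes were 0.16 ± 0.0531 (adjusted p = 0.0178), 0.24 ± 0.0531 (adjusted p = 0.000599) and 0.21 ± 0.059 (adjusted p = 0.0132). Without Palmul-tang high replicate 1 the Palmul-tang call was lost (adjusted p = 0.125), and without either Samul-tang high library the Samul-tang call was lost (adjusted p up to 0.0845). PFKL, PFKM and PFKP, the liver, muscle and platelet forms of the enzyme that commits sugar to glycolysis, passed the test in no comparison. PFKL, the main form here, averaged 118 ± 2.89 CPM in Palmul-tang high, 115 ± 6.16 CPM in Sibjeondaebo-tang high and 121 ± 1.25 CPM in Samul-tang high cells, against 119 ± 4.46 CPM in vehicle cells. PFKM and PFKP stayed at or below 2.25 CPM in all libraries.

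ALDOA, which cleaves fructose bisphosphate (ENSG00000149925, chromosome 16, 30064164 to 30070457, plus strand), stood at 1643, 1707 and 1466 CPM in Palmul-tang high, 1659, 1697 and 1679 CPM in Sibjeondaebo-tang high and 1634 and 1570.2 CPM in Samul-tang high libraries, against 1239, 1259.9 and 1273 CPM in vehicle libraries. All high-dose values lay above the vehicle values, by the most in Sibjeondaebo-tang cells. Against vehicle the log2 fold changes came to 0.35 ± 0.0522 (adjusted p = 5.23e-06), 0.42 ± 0.0522 (adjusted p = 2.81e-07) and 0.35 ± 0.0578 (adjusted p = 7.27e-05), and each was past the threshold under every alternative processing and every left-out library. ALDOC, the aldolase of brain, was called higher at the medium dose of all 3 formulas and at the low dose of Palmul-tang, and at no high dose. It stood at 40.6, 38.8 and 39.9 CPM in Palmul-tang medium, 40.0, 33.8 and 34.1 CPM in Sibjeondaebo-tang medium and 42.9 and 32.7 CPM in Samul-tang medium libraries, against 30.0, 28.7 and 31.2 CPM in vehicle libraries, with log2 fold changes of 0.41 ± 0.0809, 0.27 ± 0.0811 and 0.34 ± 0.0891 (adjusted p = 0.000549, 0.0133 and 0.00722). The Palmul-tang high values, 35, 31.1 and 28.3 CPM, overlapped vehicle. The medium calls were lost without vehicle replicate 2 or Sibjeondaebo-tang medium replicate 1 in Sibjeondaebo-tang (adjusted p up to 0.109) and without Samul-tang medium replicate 2 in Samul-tang cells (adjusted p up to 0.495). TPI1, which interconverts the triose phosphates, was called higher only in Samul-tang medium cells among the vehicle comparisons, with a log2 fold change of 0.21 ± 0.0704 (adjusted p = 0.0333), lost without Samul-tang medium replicate 2 or vehicle replicate 2 or 3 (adjusted p up to 0.523).

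PGM1, the mutase that joins glycogen to glycolysis, stood at 105, 96.5 and 105 CPM in Palmul-tang high and 119, 114 and 119.6 CPM in Sibjeondaebo-tang high libraries, against 108, 113 and 117 CPM in vehicle libraries. The Palmul-tang values lay below vehicle and the Sibjeondaebo-tang values at its upper end or above it. The log2 fold change was -0.14 ± 0.0434 in Palmul-tang high cells (adjusted p = 0.013), lost without vehicle replicate 3 or Palmul-tang high replicate 2 and with no filter on low counts (adjusted p up to 0.122). In Sibjeondaebo-tang and Samul-tang high cells it was 0.07 ± 0.0432 (adjusted p = 0.251) and -0.04 ± 0.048 (adjusted p = 0.605).

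In the lower part, PKM and GAPDH rose at the high dose of all 3 formulas, 2 of 7 genes tested, ENO1 rose and ENO2 fell in Sibjeondaebo-tang high cells, and no other gene was called at a high dose. PKM makes pyruvate in the last step (ENSG00000067225, chromosome 15, 72199029 to 72231822, minus strand). It stood at 767, 796 and 777 CPM in Palmul-tang high, 836, 826 and 844 CPM in Sibjeondaebo-tang high and 800.1 and 723 CPM in Samul-tang high libraries, against 556, 590.4 and 582 CPM in vehicle libraries. Every high-dose library lay above every vehicle library. In edgeR's fit the log2 fold changes were 0.44 ± 0.053 (adjusted p = 2.02e-07), 0.54 ± 0.0531 (adjusted p = 3.8e-09) and 0.40 ± 0.0586 (adjusted p = 1.3e-05), and each was past the threshold under every alternative and every left-out library. Along the doses the PKM mean was higher at each step in all 3 formulas. In Sibjeondaebo-tang cells it was 576 CPM in vehicle, 662 at low, 724 at medium and 835 CPM at high dose. The gene table does not separate the M1 and M2 splice forms of PKM.

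The liver pyruvate kinase gene PKLR did not follow PKM. It stood at 17.5, 17.4 and 16.1 CPM in Palmul-tang high, 16.4, 18.6 and 19.3 CPM in Sibjeondaebo-tang high and 16.5 and 16.6 CPM in Samul-tang high libraries, against 16.5, 16.2 and 17.4 CPM in vehicle libraries. These ranges overlapped, and the adjusted p values were 0.789, 0.185 and 0.921. PKLR was called higher at the low dose of Palmul-tang, at 19.9, 20.1 and 20.0 CPM, with a log2 fold change of 0.26 ± 0.0664 (adjusted p = 0.00512), and at the medium dose of Palmul-tang and Sibjeondaebo-tang, where the calls were lost in several settings (adjusted p up to 0.139 and 0.103). Its exons overlap those of HCN3 on the opposite strand over 17.6% of their length, and HCN3 averaged 10.8 CPM beside 18.4 CPM for PKLR. The strand setting of the counting is not stated, so shared reads of this pair cannot be told apart.

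GAPDH (ENSG00000111640, chromosome 12, 6533927 to 6538374, plus strand) stood at 3159, 3348 and 3517 CPM in Palmul-tang high, 3294, 3317 and 3481 CPM in Sibjeondaebo-tang high and 3102 and 3054 CPM in Samul-tang high libraries, against 2713, 2531 and 2542 CPM in vehicle libraries. This gene, often used as a constant reference in expression assays, lay above vehicle in all 8 high-dose libraries. The log2 fold changes were 0.36 ± 0.0668 (adjusted p = 9.51e-05), 0.37 ± 0.0668 (adjusted p = 5.4e-05) and 0.25 ± 0.0741 (adjusted p = 0.0191). The Samul-tang call was lost without vehicle replicate 2 or 3 or either Samul-tang high library (adjusted p up to 0.137). ENO1, which forms phosphoenolpyruvate, stood at 1342, 1199 and 1370.5 CPM in Palmul-tang high, 1442, 1393 and 1302 CPM in Sibjeondaebo-tang high and 1348 and 1289.5 CPM in Samul-tang high libraries, against 1192, 1202 and 1152 CPM in vehicle libraries. Only the Sibjeondaebo-tang difference passed the test, with a log2 fold change of 0.22 ± 0.0617 (adjusted p = 0.00532), and it was lost without Sibjeondaebo-tang high replicate 1 (adjusted p = 0.068).

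ENO2, the enolase of neurons, was the member of the lower part that was lower in Sibjeondaebo-tang high cells, at 34.4, 30.8 and 27.4 CPM, against 36.6, 38.2 and 37.1 CPM in vehicle libraries. All 3 values lay below vehicle, with a log2 fold change of -0.28 ± 0.107 (adjusted p = 0.0484). The call was lost without any 1 vehicle library, without Sibjeondaebo-tang high replicate 2 or 3, and with the GC correction (adjusted p up to 0.187). PGK1 and PGAM1, the kinase and mutase between GAPDH and enolase, were called in none of the 9 vehicle comparisons. PGK1 averaged 294 ± 21, 304 ± 8.86 and 305 ± 8.68 CPM at the high dose of Palmul-tang, Sibjeondaebo-tang and Samul-tang, against 294 ± 10.8 CPM in vehicle cells.

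LDHA rose at the high dose of all 3 formulas. LDHA, which reduces pyruvate to lactate (ENSG00000134333, chromosome 11, 18394388 to 18408425, plus strand), stood at 1725, 1691 and 1811 CPM in Palmul-tang high, 1791, 1797 and 1867 CPM in Sibjeondaebo-tang high and 1718 and 1619 CPM in Samul-tang high libraries, against 1378, 1293 and 1301 CPM in vehicle libraries. All high-dose libraries lay above all vehicle libraries. Against vehicle the log2 fold changes came to 0.40 ± 0.0527 (adjusted p = 1e-06), 0.46 ± 0.0528 (adjusted p = 6.86e-08) and 0.33 ± 0.0585 (adjusted p = 0.000146), past the threshold under every alternative and left-out library. Already at the medium dose LDHA was higher in all 3 formulas, with log2 fold changes of 0.41, 0.34 and 0.29, of which the last was lost without Samul-tang medium replicate 2 (adjusted p up to 0.104). Named pseudogenes of LDHA held at most 0.56% of its counts.

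In the pyruvate dehydrogenase complex, 2 of 5 subunits were called higher at the high dose of each formula, PDHA1 and PDHX, and the other 3 in no comparison. PDHA1, the catalytic subunit that the dehydrogenase kinases switch off, averaged 99.5 ± 7.4 CPM in Palmul-tang high, 101 ± 4.62 CPM in Sibjeondaebo-tang high and 95.3 ± 2.03 CPM in Samul-tang high cells, against 83.8 ± 2.5 CPM in vehicle cells (SD, n = 3, 3, 2 and 3). In edgeR's fit the log2 fold changes were 0.25 ± 0.0552, 0.27 ± 0.0552 and 0.19 ± 0.061 (adjusted p = 0.000809, 0.000312 and 0.0314). PDHA1 was already higher at the low dose of Palmul-tang (0.17 on the log2 scale) and Sibjeondaebo-tang (0.20) and was not called between doses. PDHX, which anchors the dihydrolipoamide dehydrogenase, had log2 fold changes of 0.22 ± 0.0522, 0.22 ± 0.0521 and 0.19 ± 0.0574 (adjusted p = 0.00166, 0.00111 and 0.0186). The Samul-tang high calls of PDHA1 and PDHX were both lost without Samul-tang high replicate 2. PDHB, DLAT and DLD, the partner of PDHA1, the acetyl transferase core and the shared dehydrogenase, had high-dose log2 fold changes between -0.04 (DLAT in Samul-tang high cells) and 0.12 (DLD in Sibjeondaebo-tang high cells). The exons of PDHA1 overlap MAP3K15 on the opposite strand over 21.3% of their length, and MAP3K15 averaged 4.62 CPM beside 95.3 CPM for PDHA1.

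The 6 glucose production genes split, with 1 higher and 3 lower in Palmul-tang high, 2 and 2 in Sibjeondaebo-tang high and 2 and 3 in Samul-tang high cells. SLC37A4, the carrier that brings the phosphorylated sugar into the endoplasmic reticulum for release as glucose (ENSG00000137700, chromosome 11, 119024114 to 119030906, minus strand), had the lowest adjusted p of any member that fell. It stood at 38.6, 37 and 36.6 CPM in Palmul-tang high, 33.5, 36.7 and 36 CPM in Sibjeondaebo-tang high and 39.2 and 40.3 CPM in Samul-tang high libraries, against 55.1, 50.2 and 53.8 CPM in vehicle libraries. The highest of these extract libraries lay well below the lowest vehicle library. The log2 fold changes were -0.50 ± 0.0558 (adjusted p = 4.49e-08), -0.58 ± 0.0561 (adjusted p = 2.45e-09) and -0.41 ± 0.0616 (adjusted p = 1.65e-05). At the low dose SLC37A4 was already lower in all 3, with log2 fold changes of -0.35, -0.34 and -0.39. The fall was thus called from 20 µg/mL on. Its exons overlap TRAPPC4 on the opposite strand over 8.8% of their length, and TRAPPC4 averaged 28.0 CPM beside 41.9 CPM for SLC37A4.

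G6PC1, the phosphatase that works with SLC37A4 in liver (ENSG00000131482, chromosome 17, 42900797 to 42913369, plus strand), stood at 15.4, 14.3 and 14.5 CPM in Palmul-tang high, 19.2, 16.1 and 16.8 CPM in Sibjeondaebo-tang high and 15.9 and 15.1 CPM in Samul-tang high libraries, against 18.4, 17.9 and 22.4 CPM in vehicle libraries. Palmul-tang and Samul-tang values lay below vehicle, while the Sibjeondaebo-tang values overlapped it. Against vehicle the log2 fold changes came to -0.40 ± 0.0958 (adjusted p = 0.00183), -0.17 ± 0.0944 (adjusted p = 0.161) and -0.33 ± 0.104 (adjusted p = 0.0251). The Samul-tang call was lost without vehicle replicate 3 or either Samul-tang high library (adjusted p up to 0.181). In Sibjeondaebo-tang medium cells the call (log2 fold change -0.27 ± 0.0942, adjusted p = 0.0282) stands on overlapping groups and was lost without vehicle replicate 3, Sibjeondaebo-tang medium replicate 2 or 3, or in a fit of those groups alone (adjusted p up to 0.206).

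The carboxykinase genes PCK1 and PCK2 were called in opposite directions at the high dose of Sibjeondaebo-tang and Samul-tang. PCK1, the cytosolic enzyme that is rate-limiting for glucose production in liver (ENSG00000124253, chromosome 20, 57561080 to 57568112, plus strand), stood at 9.54, 9.85 and 8.12 CPM in Palmul-tang high, 10.8, 11.2 and 10.6 CPM in Sibjeondaebo-tang high and 10.2 and 9.82 CPM in Samul-tang high libraries, against 8.11, 7.61 and 8.35 CPM in vehicle libraries. The Sibjeondaebo-tang and Samul-tang values lay above vehicle and 1 Palmul-tang value lay within it. In edgeR's fit the log2 fold changes were 0.21 ± 0.0871 (adjusted p = 0.0696), 0.44 ± 0.0856 (adjusted p = 0.000146) and 0.32 ± 0.0929 (adjusted p = 0.0139). The Samul-tang call was lost without vehicle replicate 2 or Samul-tang high replicate 2 (adjusted p up to 0.129). Its level was low throughout.

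PCK2, the mitochondrial enzyme and the main carboxykinase message in these cells (ENSG00000100889, chromosome 14, 24094053 to 24110598, plus strand), stood at 151, 142 and 148 CPM in Palmul-tang high, 156, 165 and 147 CPM in Sibjeondaebo-tang high and 145 and 152 CPM in Samul-tang high libraries, against 175, 174 and 161 CPM in vehicle libraries. The Palmul-tang and Samul-tang values lay below vehicle and the Sibjeondaebo-tang values overlapped it. The log2 fold changes were -0.21 ± 0.0485 (adjusted p = 0.00117), -0.12 ± 0.0484 (adjusted p = 0.0483) and -0.19 ± 0.0541 (adjusted p = 0.0113). The Sibjeondaebo-tang call was lost without vehicle replicate 1 or 2 or Sibjeondaebo-tang high replicate 3, with no filter on low counts and with the GC correction (adjusted p up to 0.937). The Samul-tang call was lost without Samul-tang high replicate 2. In Sibjeondaebo-tang cells PCK2 was lowest at the low dose, 139, 142 and 132 CPM, a log2 fold change from vehicle of -0.30 ± 0.0484 (adjusted p = 4.41e-05).

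PC, the pyruvate carboxylase that feeds both glucose production and the acid cycle (ENSG00000173599, chromosome 11, 66848233 to 66958376, minus strand), was higher at the high dose and at no lower dose. It stood at 67.8, 61.7 and 62.2 CPM in Palmul-tang high, 64.4, 68.2 and 66.3 CPM in Sibjeondaebo-tang high and 57.5 and 62.2 CPM in Samul-tang high libraries, against 49.8, 52 and 54.9 CPM in vehicle libraries. The groups did not overlap. Against vehicle the log2 fold changes came to 0.29 ± 0.0586 (adjusted p = 0.000276), 0.35 ± 0.0586 (adjusted p = 2.75e-05) and 0.20 ± 0.0646 (adjusted p = 0.0309), and the Samul-tang call was lost without vehicle replicate 1 or 2 or Samul-tang high replicate 3 (adjusted p up to 0.228). FBP1 had at most 0.508 CPM in any library and passed the test in no comparison, so a change of FBP1 was not detectable at this depth.

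**Figure D3:**
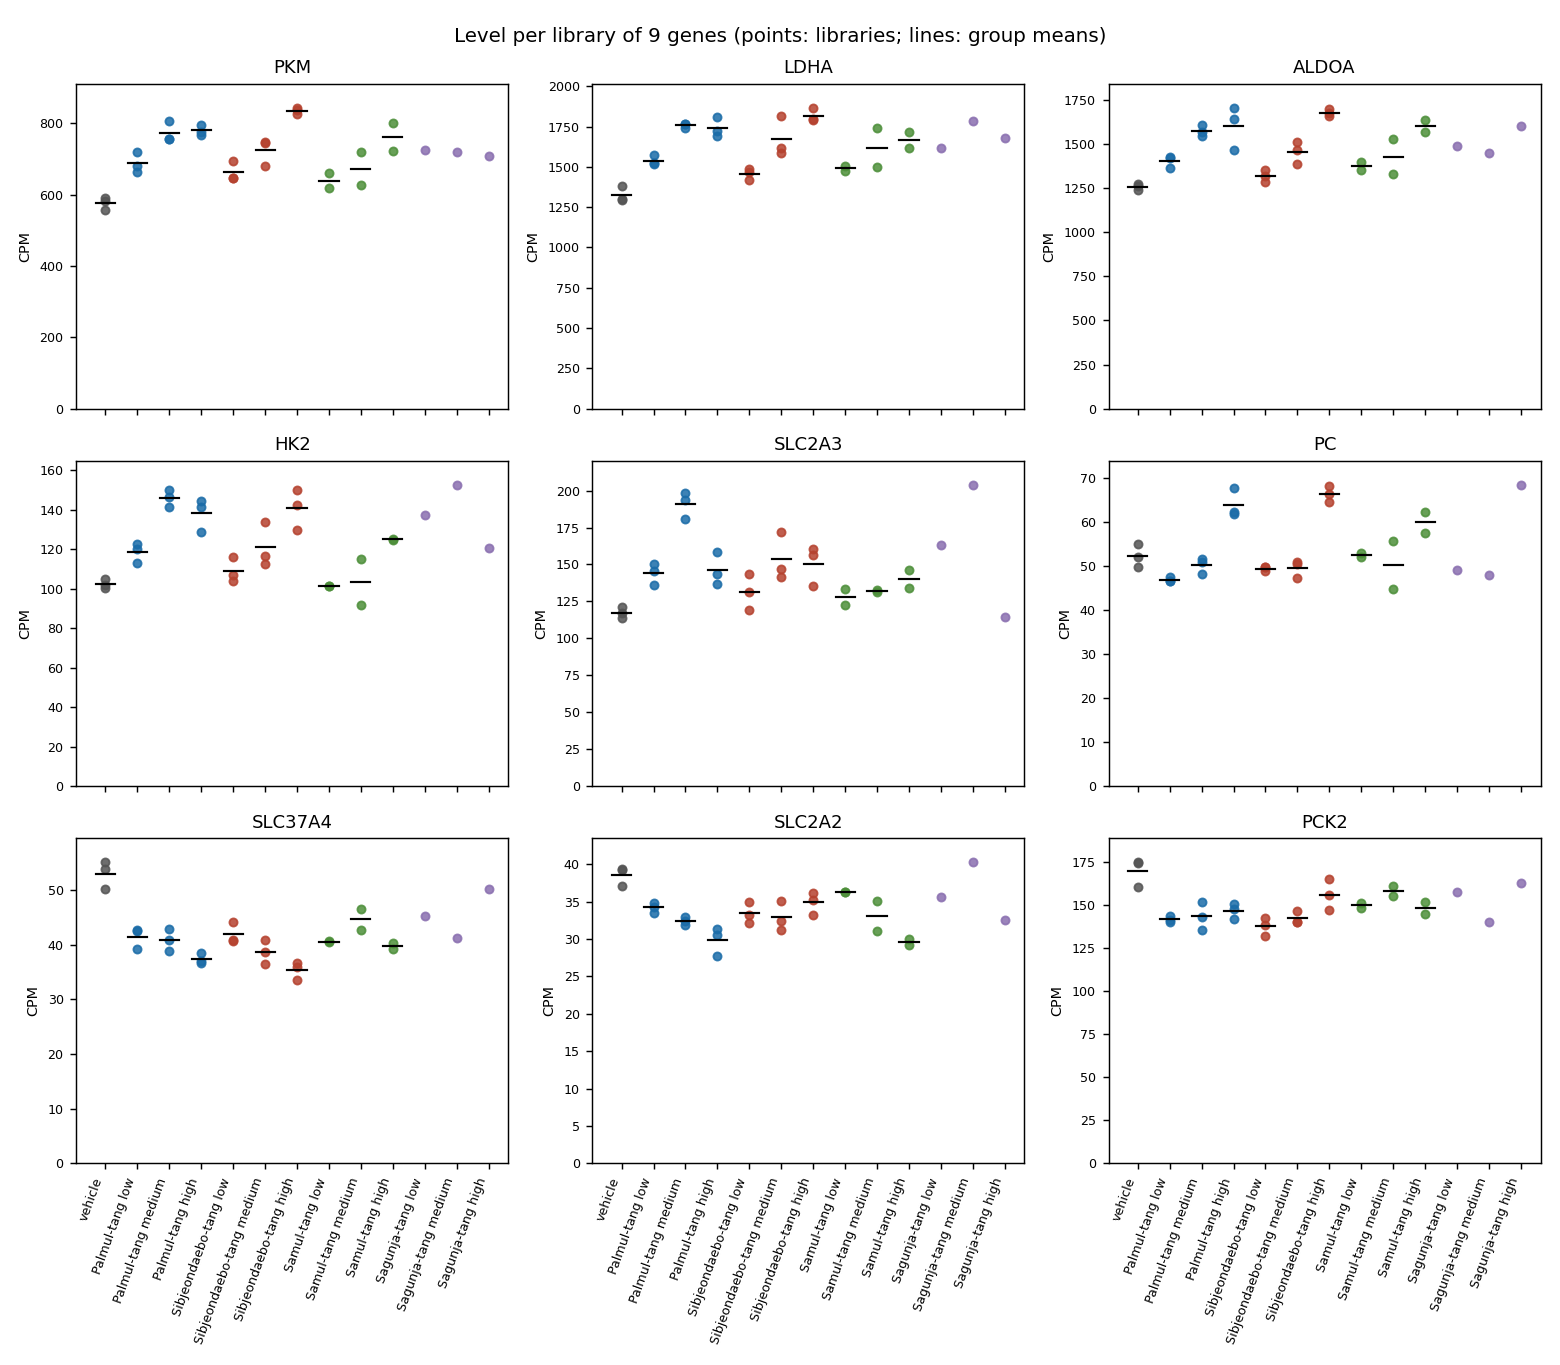
Level in CPM of 9 members by group, with vehicle at the left of the doses, 1 point per library and a line at the group mean, each panel with its own axis from 0. The PKM means climb with dose in Palmul-tang, Sibjeondaebo-tang and Samul-tang cells, SLC37A4 lies below vehicle at every dose of these formulas, and PC stands above vehicle at the high doses.

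Comparing doses within a formula keeps to libraries of 1 code set. In Palmul-tang cells at high against low dose, 9 members were higher and 2 lower (32.4% of members, beside 6.78% of all genes, 3.75% higher and 3.03% lower). In Sibjeondaebo-tang cells 15 were higher and 1 lower (47.1%, beside 19.8%, 10.4% higher and 9.44% lower), and in Samul-tang cells 1 was higher and 1 lower (5.88%, beside 1.42%, 0.709% higher and 0.715% lower). The members' median log2 fold change between these doses was 0.09, 0.19 and 0.06, against 0.00, 0.02 and -0.00 over all genes. Most Palmul-tang calls were near the threshold: the count of 11 became 4, 5 and 4 without high replicate 1, 2 or 3, and 7, 3 and 5 without low replicate 1, 2 or 3. In Sibjeondaebo-tang cells leaving out 1 library gave 12 to 16, and 13 without low replicate 3, the library with the highest summed fibroblast markers. In Samul-tang cells the count was 0 without high replicate 2, low replicate 2 or low replicate 3 and 1 without high replicate 3. Among all genes the Sibjeondaebo-tang calls were 52.4% higher, a split that was 39.8% with no filter on low counts and 65.8% with a GC correction, while the members stood at 15 higher and 2 lower and at 17 higher and 1 lower under those settings.

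PC led the Palmul-tang dose comparison and was among the first in Sibjeondaebo-tang cells. It stood at 67.8, 61.7 and 62.2 CPM in Palmul-tang high against 46.5, 46.6 and 47.4 CPM in Palmul-tang low libraries, with a log2 fold change of 0.45 ± 0.0591 (adjusted p = 2.82e-06). In Sibjeondaebo-tang cells it stood at 64.4, 68.2 and 66.3 CPM at high against 48.7, 49.6 and 49.8 CPM at low dose, a log2 fold change of 0.43 ± 0.0584 (adjusted p = 2.32e-06). In both formulas the low and high libraries were far apart, and the low libraries lay at or below the vehicle range of 49.8, 52 and 54.9 CPM. Samul-tang high against low gave 0.19 ± 0.0712 (adjusted p = 0.281). The same pattern of a step at the top dose was seen against the medium dose, with 0.35 ± 0.059 in Palmul-tang (adjusted p = 0.000399) and 0.42 ± 0.0588 in Sibjeondaebo-tang cells (adjusted p = 7.35e-06).

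SLC2A1 also rose between doses in Palmul-tang and Sibjeondaebo-tang cells. It stood at 297, 266 and 266 CPM in Palmul-tang high against 236, 235 and 229 CPM in Palmul-tang low libraries and at 296, 311 and 285 CPM in Sibjeondaebo-tang high against 233, 229 and 222 CPM in Sibjeondaebo-tang low libraries. The log2 fold changes were 0.25 ± 0.0519 (adjusted p = 0.00214) and 0.38 ± 0.0518 (adjusted p = 1.81e-06), with no overlap between doses. Beside PC, SLC2A1 was the Palmul-tang call that no left-out library or alternative removed, and each of the other calls there was lost on leaving out at least 1 library. GPI rose between doses in the same formulas, at 352, 319.7 and 323 CPM against 296, 276 and 274 CPM in Palmul-tang cells and 347, 366 and 338 CPM against 282, 264 and 276 CPM in Sibjeondaebo-tang cells. Its log2 fold changes were 0.24 ± 0.0532 (adjusted p = 0.00429, and 0.0513 without Palmul-tang high replicate 1) and 0.35 ± 0.0531 (adjusted p = 1.01e-05).

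ALDOA and ENO1 also rose between doses in Palmul-tang and Sibjeondaebo-tang cells, and PKM in all 3 formulas. ALDOA stood at 1643, 1707 and 1466 CPM in Palmul-tang high against 1420.1, 1364 and 1429 CPM in Palmul-tang low libraries, with a log2 fold change of 0.19 ± 0.0521 (adjusted p = 0.019). In Sibjeondaebo-tang cells ALDOA stood at 1659, 1697 and 1679 CPM at high against 1354, 1287 and 1318 CPM at low dose (0.35 ± 0.0521, adjusted p = 1.01e-05). ENO1 stood at 1342, 1199 and 1370.5 CPM against 1173, 1124 and 1044 CPM in Palmul-tang cells (0.23 ± 0.0617, adjusted p = 0.0196) and at 1442, 1393 and 1302 CPM against 1089, 1042 and 1056 CPM in Sibjeondaebo-tang cells (0.38 ± 0.0617, adjusted p = 3.71e-05). In Sibjeondaebo-tang cells all ENO1 libraries at low dose lay below all vehicle libraries. PKM, called between high and low dose in all 3 formulas, had log2 fold changes of 0.18 ± 0.0529 in Palmul-tang, 0.33 ± 0.0529 in Sibjeondaebo-tang and 0.25 ± 0.0648 in Samul-tang cells (adjusted p = 0.0315, 2.2e-05 and 0.0403). In Samul-tang libraries PKM stood at 800.1 and 723 CPM at high against 619 and 659.6 CPM at low dose. That call was lost without high replicate 2, low replicate 2 or low replicate 3 or in a fit of both groups alone (adjusted p up to 0.619).

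GAPDH in Palmul-tang cells rose between doses, at 3159, 3348 and 3517 CPM in high against 2832, 2655 and 3038 CPM in low libraries, with a log2 fold change of 0.23 ± 0.0667 (adjusted p = 0.0276). In Sibjeondaebo-tang cells the members called between doses also took in HK2 (0.37 ± 0.0692, adjusted p = 0.000294), LDHA, SLC16A1, GAPDH, TPI1, PGK1, PGAM1, PCK2 and PGM1, so that 5 of the 7 genes of the lower part rose, all but ENO2 and PKLR. The calls of GAPDH and PGAM1 were lost without Sibjeondaebo-tang high replicate 3, and those of TPI1, PGK1, PCK2 and PGM1 under several settings. Against the medium dose 9 members were higher and 0 lower in Sibjeondaebo-tang high cells (26.5%, beside 11.1% of all genes, 5.04% higher and 6.07% lower), 4 without high replicate 1 and 5 without medium replicate 2. In Palmul-tang cells 1 was higher and 2 lower (8.82%, beside 2.26%, 1.16% higher and 1.1% lower), PC higher and SLC2A3 and ALDOC lower. ALDOC stood at 35, 31.1 and 28.3 CPM in Palmul-tang high against 40.6, 38.8 and 39.9 CPM in Palmul-tang medium libraries (-0.33 ± 0.081, adjusted p = 0.0227), a call that 5 of 6 left-out libraries removed.

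Falls between doses were few. SLC2A2 stood at 31.4, 30.5 and 27.7 CPM in Palmul-tang high against 33.5, 34.9 and 34.3 CPM in Palmul-tang low libraries (-0.19 ± 0.0575, adjusted p = 0.0362) and at 30.0 and 29.2 CPM in Samul-tang high against 36.3 and 36.3 CPM in Samul-tang low libraries (-0.30 ± 0.069, adjusted p = 0.0183). In Sibjeondaebo-tang cells it stood at 33.2, 35.2 and 36.2 CPM at high against 35, 32.2 and 33.3 CPM at low dose, with overlapping groups and a log2 fold change of 0.06 ± 0.0565 (adjusted p = 0.496). The Samul-tang call was lost on leaving out any of its 4 libraries (adjusted p up to 0.22). PKLR stood at 17.5, 17.4 and 16.1 CPM in Palmul-tang high against 19.9, 20.1 and 20.0 CPM in Palmul-tang low libraries (-0.23 ± 0.0668, adjusted p = 0.0312), and this call too was lost on leaving out any of the 6 (adjusted p up to 0.122). SLC37A4 fell further between doses in Sibjeondaebo-tang cells, at 33.5, 36.7 and 36 CPM at high against 40.8, 44.2 and 40.7 CPM at low dose (-0.24 ± 0.0563, adjusted p = 0.00222). PCK2 went up there, at 156, 165 and 147 CPM at high against 139, 142 and 132 CPM at low dose (0.18 ± 0.0485, adjusted p = 0.00743), back toward vehicle.

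Means that were higher at every step from vehicle through low and medium to high dose were seen for 5 members in Palmul-tang (HK1, ALDOA, GAPDH, PKM and PDHX), 8 in Sibjeondaebo-tang (HK2, ALDOA, GAPDH, PKM, LDHA, DLAT, PDHX and PCK1) and 4 in Samul-tang cells (SLC2A3, ALDOA, PKM and LDHA). Means that were lower at every step were seen for 4 members in Palmul-tang (SLC2A2, PDHB, G6PC1 and SLC37A4), 1 in Sibjeondaebo-tang (SLC37A4) and 2 in Samul-tang cells (SLC2A2 and G6PC1). This order of means was not tested. It was not counted over all genes either, so these counts have no background beside them.

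**Figure D4:**
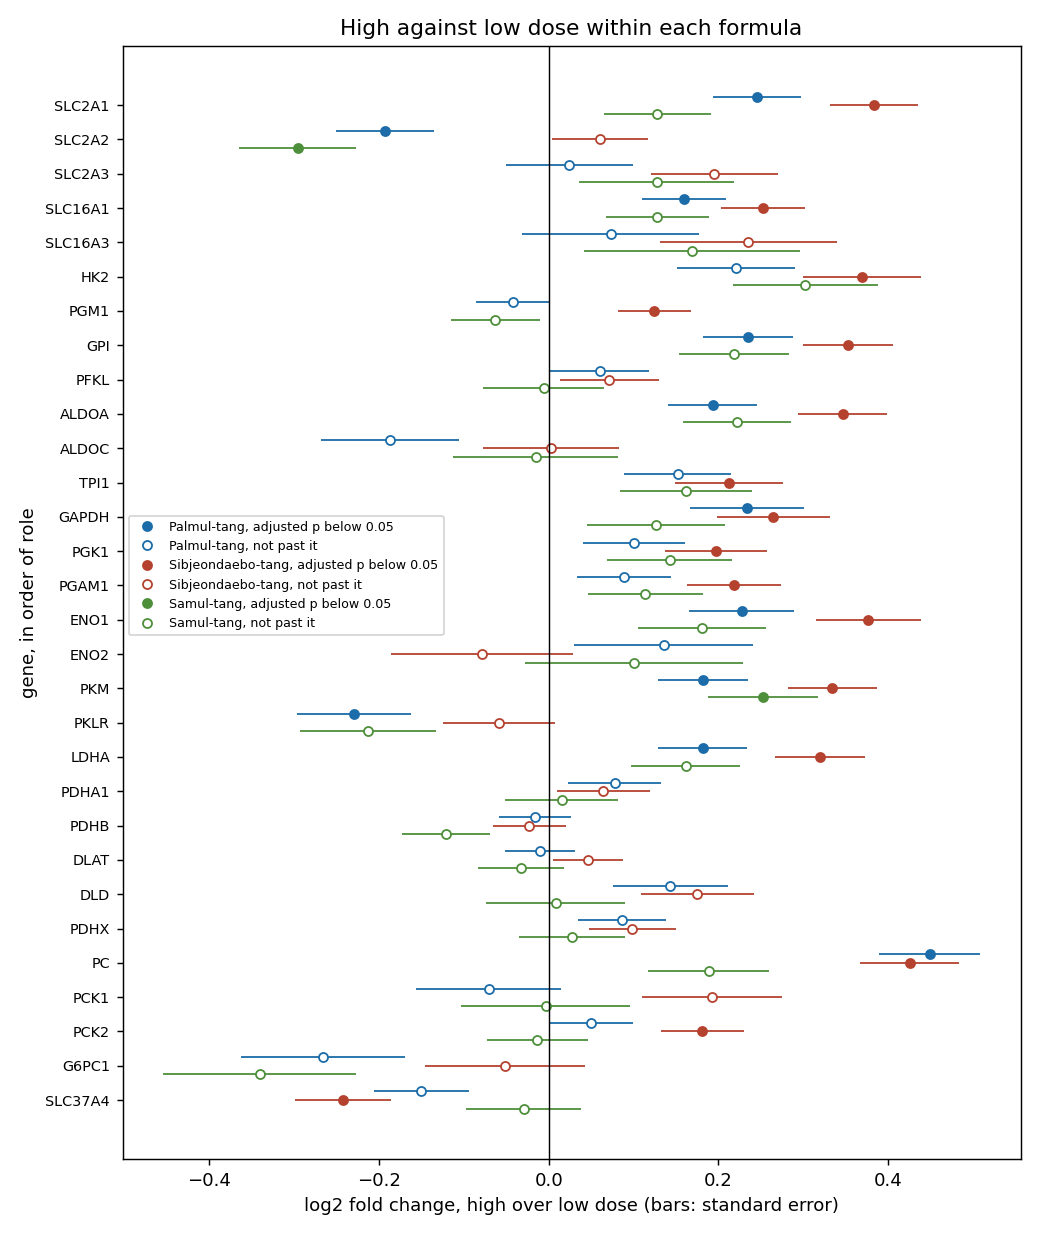
Log2 fold change at high against low dose, with bars of 1 SE, of the 30 tested members left when HK1, PFKM, PFKP and FBP1, at about 1 CPM or below, are set aside, for Palmul-tang, Sibjeondaebo-tang and Samul-tang, filled where edgeR's adjusted p was below 0.05. PC and SLC2A1 are among the highest in Palmul-tang and Sibjeondaebo-tang cells (0.45 and 0.43 for PC), and SLC2A2 lies below 0 in Palmul-tang and Samul-tang cells and above 0 in Sibjeondaebo-tang cells.

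By tradition Sibjeondaebo-tang is Palmul-tang with added herbs, and few members differed between them at a matched dose. The labels do not give the composition of the extracts. At the high dose 2 members were higher and 1 lower in Sibjeondaebo-tang cells (8.82% of members, beside 6.47% of all genes, 1.75% higher and 4.72% lower, so a share near the background). PGM1 stood at 119, 114 and 119.6 CPM in Sibjeondaebo-tang high against 105, 96.5 and 105 CPM in Palmul-tang high libraries, without overlap, with a log2 fold change of 0.21 ± 0.0434 (adjusted p = 0.00205), lost without Palmul-tang high replicate 2 (adjusted p = 0.073). SLC2A2 stood at 33.2, 35.2 and 36.2 CPM against 31.4, 30.5 and 27.7 CPM (0.22 ± 0.0577, adjusted p = 0.0157), lost without replicate 2 or 3 of either formula (adjusted p up to 0.159). ENO2 stood at 34.4, 30.8 and 27.4 CPM against 41.2, 37.8 and 39.6 CPM (-0.36 ± 0.107, adjusted p = 0.0457), lost on leaving out any of these libraries but Sibjeondaebo-tang high replicate 1 (adjusted p up to 0.204). The count was 0 without Palmul-tang high replicate 2 and 1 without Palmul-tang high replicate 3, Sibjeondaebo-tang high replicate 2 or Sibjeondaebo-tang high replicate 3. Over all genes 27.1% of the calls were higher in Sibjeondaebo-tang cells, a split that was 15% with median-ratio scaling, 17% with no filter, 14.9% in a fit of both groups alone and 48.3% with a GC correction.

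At the medium dose 0 members were called (0% of members, beside 0.0311% of all genes), with 1 called by DESeq2. At an unadjusted p below 0.05 in edgeR there were 13 of 34 members (38.2%), beside 6.31% of all genes. The smallest adjusted p was 0.196, for SLC2A3, at 172, 147 and 142 CPM in Sibjeondaebo-tang medium against 199, 194 and 181 CPM in Palmul-tang medium libraries, where the log2 fold change was -0.31 ± 0.0744. Without Sibjeondaebo-tang medium replicate 1 the count was 4. At the low dose 0 members were called (beside 0% of all genes), 0 had an unadjusted p below 0.05 and DESeq2 called 0. A missed threshold with 3 libraries a side does not show that the formulas act alike on these genes.

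Whether the step from low to high dose differed between formulas was tested directly. Of the 34 members 1 was called, SLC2A2 between Samul-tang and Sibjeondaebo-tang (beside 1.68% of all genes), where the difference of the log2 fold changes was -0.36 ± 0.0892 (adjusted p = 0.0283). Between these formulas 6 members had an unadjusted p below 0.05 in edgeR, beside 11.8% of all genes. Between Sibjeondaebo-tang and Palmul-tang the same difference for SLC2A2 was 0.25 ± 0.0806 (adjusted p = 0.117) and 0 members were called by edgeR (beside 2% of all genes), with 5 at an unadjusted p below 0.05 (beside 11.3% of all genes at that threshold). Between Samul-tang and Palmul-tang 0 were called (beside 0.0124%), with 1 at an unadjusted p below 0.05 (beside 3.52%). Neither DESeq2 nor the other alternatives, left-out libraries among them, were run on these differences. So the larger member counts of Sibjeondaebo-tang at high against low dose were not, gene by gene, shown to differ from those of Palmul-tang.

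Sagunja-tang had 1 library per dose, so its values have no replicate check and no test. Against the mean of the vehicle libraries, 1 member lay past an absolute log2 ratio of 0.5 at low dose (HK1, at 0.82), beside 11.3% of all genes (4.6% higher and 6.69% lower). There were 3 at medium dose (SLC2A3 at 0.80, HK1 at 0.66 and HK2 at 0.57), beside 11.2% (4.86% higher and 6.37% lower). At high dose there were 0, beside 15.3% (5.37% higher and 9.92% lower), with 1 on leaving out vehicle replicate 1 or 2. Counted in either direction, these shares are at or below the background. At medium dose all 3 were higher, a share above the 4.86% of all genes that were higher. The background was not matched for level and takes in genes of low count, whose log2 ratios vary more. At high against low dose SLC2A3 (-0.51) and HK1 (-0.81) lay past it, beside 15.2% (6.27% higher and 8.93% lower). HK1 rests on 22 to 51 counts a library. PKM stood at 725, 719 and 708 CPM at low, medium and high dose and LDHA at 1617, 1783 and 1678 CPM, all above the vehicle libraries. PC stood at 48.9, 48 and 68.3 CPM, the last above every vehicle library and the others below all of them. SLC37A4 stood at 45.3, 41.2 and 50.2 CPM, the last at the edge of the vehicle range.

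Ratios within a library were taken for more pairs than are given here. Those given were picked with their calls known, so the shift of their ratios is no separate result. PKM and PKLR are isozymes of which PKM alone was called at the high dose. The others are the carriers SLC2A1 and SLC2A2, and PCK2 and PC, different enzymes of glucose production. Pairs not given include HK2 and HK1, both called higher at the high dose. Both SLC2A1 and SLC2A2 were called in Palmul-tang and Sibjeondaebo-tang high cells, and both PCK2 and PC at the high dose of all 3 formulas. Within a library the log2 ratio of PKM to PKLR counts was 5.45 to 5.59 in Palmul-tang high, 5.45 to 5.67 in Sibjeondaebo-tang high and 5.44 to 5.60 in Samul-tang high libraries, against 5.06 to 5.18 in vehicle libraries, with no overlap. For the GLUT1 to GLUT2 pair, SLC2A1 to SLC2A2, it was 3.12 to 3.26, 2.98 to 3.15 and 3.02 to 3.12 in the same order, against 2.59 to 2.67 in vehicle libraries. For PCK2 to PC it was 1.15 to 1.25, 1.15 to 1.28 and 1.29 to 1.33, against 1.55 to 1.81. These are ratios of counts, not corrected for length, and show unequal change of the partners only.

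Other genes of glucose metabolism that are not members changed beside them. The lists given from here on were also chosen with earlier results of these data known, so their counts are descriptive. Over all genes, 16.3% were higher and 15.6% lower in Palmul-tang high, 19.3% and 16.7% in Sibjeondaebo-tang high and 9.82% and 8.69% in Samul-tang high cells. The regulators of fructose bisphosphate had 2 higher and 2 lower of 5 tested in Palmul-tang high, 2 and 2 in Sibjeondaebo-tang high and 2 and 1 in Samul-tang high cells. PFKFB3, which makes the strongest activator of phosphofructokinase, had the largest fold of these, with log2 values of 2.02 ± 0.224, 2.01 ± 0.224 and 1.92 ± 0.238 (adjusted p = 1.08e-06, 8.68e-07 and 1.39e-05), at 9.71 ± 1.18 CPM in Palmul-tang high cells against 2.39 ± 0.257 CPM in vehicle cells. PFKFB4 rose by 0.69, 0.65 and 0.71 on the log2 scale, and PFKFB2, the form of heart, had -0.30, -0.30 and -0.23. Phosphofructokinase genes themselves, as above, were not called.

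Of 9 regulators of the fate of pyruvate tested, 1 was higher and 5 lower in Palmul-tang high, 1 and 4 in Sibjeondaebo-tang high and 1 and 4 in Samul-tang high cells. Their median log2 fold change was -0.27, -0.13 and -0.19, beside -0.01, -0.01 and -0.00 over all genes. The gene that rose was PDK1, the kinase that switches off PDHA1, at log2 fold changes of 0.76, 0.70 and 0.61, and it was also called at high against low dose in all 3. MPC2, part of the mitochondrial pyruvate carrier, had -0.48, -0.28 and -0.25, and LDHD, the dehydrogenase of D-lactate, had -0.80, -0.73 and -0.70. The list of other glucose and lactate carriers also held BSG, G6PC2 and G6PC3, which are not carriers. Of its 9 genes tested 0 rose and 3, 4 and 3 fell. SLC2A4, the insulin-responsive GLUT4, fell by the most, to 6.48 ± 0.535 CPM in Palmul-tang high cells against 12.8 ± 0.479 CPM in vehicle cells (log2 fold change -0.99 ± 0.0849, adjusted p = 2.57e-10), with -1.02 and -0.97 in the other two formulas. SLC2A10 had -0.54, -0.46 and -0.67 and SLC2A6 -0.38, -0.35 and -0.37.

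Of 6 other glycolytic isozymes tested, 3 rose and 1 fell in Palmul-tang high, 1 and 2 in Sibjeondaebo-tang high and 1 and 1 in Samul-tang high cells. HKDC1, a hexokinase-like gene, rose with log2 fold changes of 0.74, 0.75 and 0.65 against vehicle and was called at high against low dose in all 3. ENO3, the muscle enolase, fell with -0.40, -0.57 and -0.33. GCKR, the inhibitor of glucokinase, was higher in Palmul-tang high cells (0.40 ± 0.0908, adjusted p = 0.00103) and lower in Sibjeondaebo-tang high cells (-0.29 ± 0.0967, adjusted p = 0.0191), with 0.27 in Samul-tang high cells (adjusted p = 0.0562). In glycogen metabolism 6 of 15 rose and 3 fell in Palmul-tang high, 6 and 2 in Sibjeondaebo-tang high and 2 and 2 in Samul-tang high cells. PYGL, the liver phosphorylase that frees sugar from glycogen, had 0.20, 0.28 and 0.14 (adjusted p = 0.000411, 3.62e-06 and 0.0349). GYG2, the liver primer of glycogen, had -0.45, -0.29 and -0.36, and UGP2, which activates sugar for glycogen, had 0.21, 0.34 and 0.17 (adjusted p = 0.00379, 1.95e-05 and 0.0572).

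Of 22 transcriptional regulators of these paths, 9 rose and 4 fell in Palmul-tang high, 12 and 4 in Sibjeondaebo-tang high and 7 and 5 in Samul-tang high cells. CEBPB, a factor of the acute phase and of glucose production, rose with log2 fold changes of 0.97, 1.23 and 0.95, while CEBPA, its partner in mature liver, fell with -0.59, -0.41 and -0.29. MLXIPL, the glucose-sensing factor ChREBP that drives PKLR in liver, fell in Sibjeondaebo-tang high cells (-0.84 ± 0.0663, adjusted p = 9.14e-11, at 103 ± 7.84 CPM against 183 ± 8.41 CPM in vehicle cells). In Palmul-tang and Samul-tang high cells MLXIPL had -0.04 (adjusted p = 0.655) and -0.08 (adjusted p = 0.46). PKLR was called in none of these 3 comparisons. Of 16 targets of hypoxia-inducible factor outside glucose metabolism, 13 rose and 0 fell at the high dose of each formula. KDM3A, a histone demethylase, had 0.69, 0.68 and 0.57, and BNIP3L, a receptor of mitophagy, 0.46, 0.54 and 0.43.

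Markers moved beside these results, and their part in them was not tested. Albumin (ALB) fell at the high dose, with log2 fold changes of -0.40, -0.34 and -0.29, while SERPINA1 rose with 0.32, 0.44 and 0.33. Of the 10 hepatocyte markers 1 rose and 3 fell in Palmul-tang high, 2 and 2 in Sibjeondaebo-tang high and 2 and 2 in Samul-tang high cells. LYZ, which made up most of the summed immune markers of 1080.3 to 1826.9 CPM in extract and 1224.5 to 1341.7 CPM in vehicle libraries, rose with 0.42, 0.41 and 0.34. Mitochondrial transcripts took 17.2% to 19.4% of the counts in Sibjeondaebo-tang high and 15.7% to 17.0% in Sibjeondaebo-tang low libraries.

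**Figure D5:**
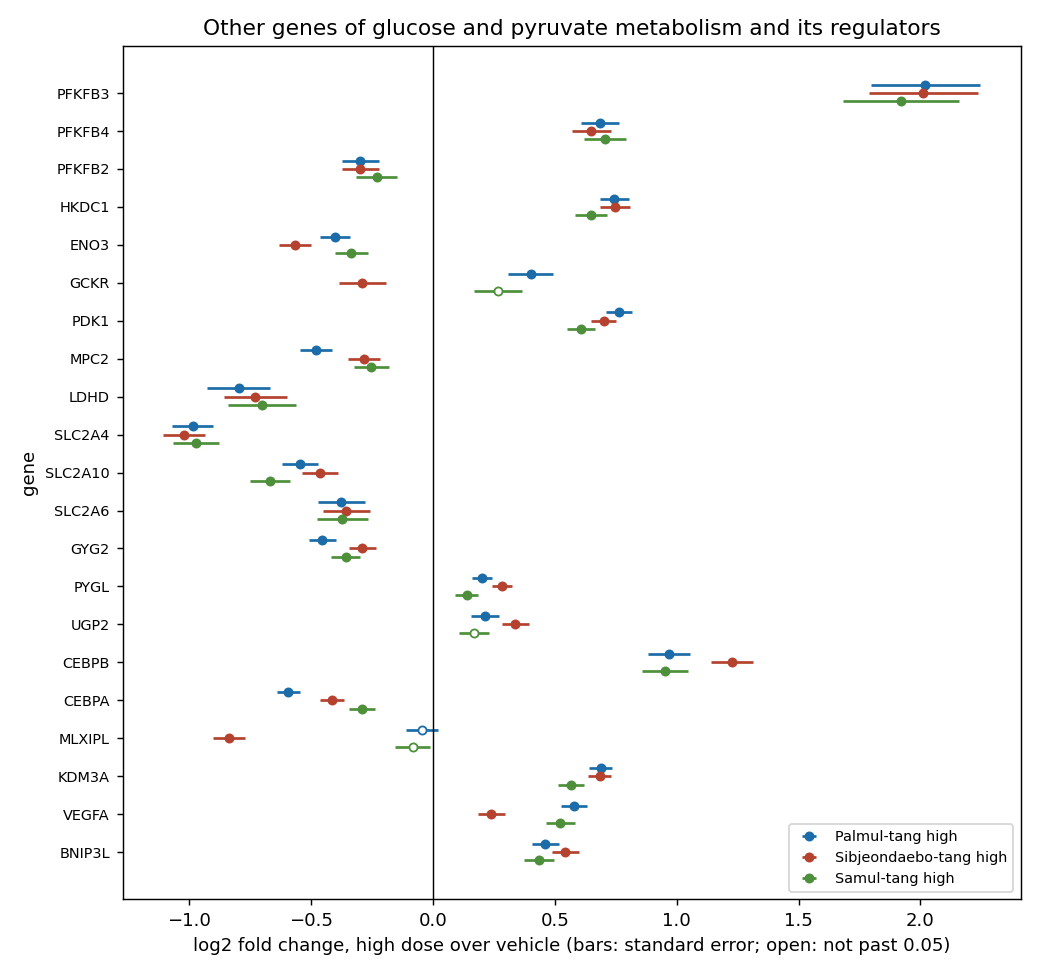
Log2 fold change against vehicle at the high dose, with bars of 1 SE, for named genes outside the 35 members in Palmul-tang, Sibjeondaebo-tang and Samul-tang cells, open where edgeR's adjusted p was not below 0.05. PFKFB3 stands highest in all 3 formulas, SLC2A4 lowest, and GCKR and MLXIPL differ in position between formulas.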

How the data were processed

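RNA of HepG2 cells was sequenced with a directional kit, per the labels' protocols. The authors deposited RSEM expected counts per gene, of which 8.56% were not whole (tolerance 1e-6), and they were rounded here. RSEM 1.3.3, STAR 2.7.3a, Trim Galore 0.6.5 and FastQC 0.11.9 are named, per the submitters' processing notes, and GRCh38 and hg38 as builds. No source used here gives the annotation release. Such counts divide a read by estimate when it matches more than 1 similar gene. Symbols and positions came from GENCODE 29, which matched 57055 of 60675 rows, and 240 columns belong to no sample used here. Sample groups follow the labels.

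Levels are CPM with TMM scaling over the 30 libraries. The 27 libraries of the 10 groups with replicates entered 1 edgeR 4.0.16 quasi-likelihood fit (R 4.3.3, robust, limma 3.58.1 loaded, minimum count 10, total 15, 17 residual degrees of freedom, biological coefficient of variation 5.47%), checked on simulated counts, with 17 comparisons and Benjamini-Hochberg adjustment over 16083 genes at 0.05. Each SE was obtained as the absolute log2 fold change over the root of the F statistic. Sagunja-tang, with 1 library a dose, was compared by log2 ratios (prior count 2, alternative 0.5). No comparison met the criterion for paired replicate numbers (every correlation of deviations above 0.1), so the fit has no replicate block. Alternatives were median-ratio scaling, no filter, DESeq2 1.42.0, compared groups alone, a GC and length offset (known for 99.34% of genes tested), a replicate block, both together, and each library left out. Counting error sets the precision of the members near 1 CPM.

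The members and lists were chosen with earlier results of these data known. Members given in full were the 6 each way with the smallest adjusted p in the high-dose, high against low and Sibjeondaebo-tang against Palmul-tang comparisons, those called in opposite directions, the sole called member of a role, and PCK1, G6PC1, PKLR and SLC2A2. Up to 3 genes of each other list were named by smallest adjusted p.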

Additional observations from a re-analysis of the deposited data

Results flagged for a closer look

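For SLC2A2, the GLUT2 carrier, the change from low to high dose differed between 2 formulas by a direct test of the difference. The log2 fold change at high against low dose in Samul-tang minus that in Sibjeondaebo-tang cells was -0.356 (SE 0.0892, edgeR adjusted p = 0.0283). It was tested in the main fit alone, with no alternative processing and no library left out. The Samul-tang call of SLC2A2 at high against low dose was lost on leaving out any of its libraries. In Samul-tang cells the means were 29.6 CPM at high and 36.3 CPM at low dose, and both high libraries lay below both low libraries. In Sibjeondaebo-tang cells they were 34.9 CPM at high and 33.5 CPM at low dose, with overlapping groups. The formulas also differ in the prefix of their sample codes, and formula and code set cannot be told apart here.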

How the results depend on the processing

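The 156 called results of single members were recomputed under the alternatives, 1996 values in all. Of these 1725 stayed past the threshold in the same direction, 271 kept their direction and lost the call, and 0 reversed. Leaving out 1 library accounted for 225 of the losses, and 80 of the 156 results held under every alternative. No setting moved the median of all genes by over 0.1 on the log2 scale.

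Counts of members called moved by more than 1.5 times in several comparisons under alternative processing. Leaving out a library moved further counts, as the ranges below show. Sibjeondaebo-tang low against vehicle went beyond its 6 to 12 with no filter, 10 with the GC correction and 17 in a fit of the groups alone. Samul-tang medium against vehicle, with 9, gave 0 in a fit of the groups alone. Samul-tang low against vehicle, with 3, gave 7 with the GC correction and 6 alone. Samul-tang high against low, with 2, gave 6 with no filter, 5 with the GC correction and 5 by DESeq2. Sibjeondaebo-tang medium against Palmul-tang medium, with 0, gave 5 with no filter and 1 by DESeq2. The cause was not tested.

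The replicate numbers did not pair the samples, as no comparison had every correlation above 0.1 (lowest -0.17). With a replicate block the counts that moved were 10 for Sibjeondaebo-tang low against vehicle, 5 for Samul-tang low against vehicle, 4 for Samul-tang high against low and 1 for Sibjeondaebo-tang medium against Palmul-tang medium. With the block and the GC correction together they were 11, 7, 6 and 2 in the same order.

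With each library left out in turn, members called against vehicle ranged from 16 to 18 in Palmul-tang high, 11 to 13 in medium and 8 to 10 in low, from 15 to 18 in Sibjeondaebo-tang high, 10 to 15 in medium and 5 to 7 in low, and from 6 to 14 in Samul-tang high, 1 to 11 in medium and 1 to 3 in low. High against low ranged from 3 to 7 in Palmul-tang, 12 to 16 in Sibjeondaebo-tang and 0 to 1 in Samul-tang. High against medium ranged from 2 to 3 in Palmul-tang and 4 to 12 in Sibjeondaebo-tang. Sibjeondaebo-tang against Palmul-tang ranged from 0 to 3 at high, 0 to 4 at medium and 0 to 0 at low dose. Past the fold for Sagunja-tang were 0 to 1 at high, 3 to 3 at medium and 1 to 1 at low dose. Depth limits HK1, PFKM, PFKP and FBP1, each at or below 2.25 CPM.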
